A study of Oryza sativa with 8 samples.

Results

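Calcium signals in plant cells are read by proteins that carry EF-hands, helix-loop-helix motifs that bind calcium and change shape when they do. Calmodulins bind and regulate other proteins in their calcium-bound form, the calmodulin-like (CML) proteins share the EF-hands but are more diverse, and calcineurin B-like (CBL) proteins act by binding a family of protein kinases (CIPKs). In roots these sensors take part in responses to drought, salt and other stresses. The rice genes of this group were taken as every gene whose deposited description names an EF-hand, calmodulin or calcineurin B, leaving out kinases and calmodulin-binding proteins. This gave 126 of the 37869 genes in the table, OsCML16 and OsCCD1 among them.

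The genes were read in RNA-seq libraries of roots from 2-week-old rice plants. ROX OsERF48 plants overexpress the AP2/ERF transcription factor OsERF48 under the root-specific RCc3 promoter in the cultivar Ilmi, and the sampled lines were ROX-2 and ROX-6, each descending from 1 transformation event. Nontransgenic (NT) plants were of the same cultivar. All seedlings germinated for 4 days at 28 °C on MS medium before they were moved to soil, and the labels give no drought treatment. There were 4 ROX OsERF48 and 4 NT libraries.

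The table columns fall into 2 named sets, called Root and Set here after their column names, each with 2 libraries of each genotype, numbered 1 and 2. In the Set names the number belongs to the set itself (set1 and set2, with 1 library of each genotype in each), and what it marks is not given. The names do not say which line a library holds, and the Set names give neither the promoter nor the tissue and were taken as ROX OsERF48 and NT roots from the labels, so the line, the set and anything else that differed between the sets cannot be told apart. The study's methods describe biological and technical replicates, and the names do not separate them. A p-value within 1 set, or for a difference between the sets, measures the spread between libraries, which may be technical. Where both sets are fitted together for 1 genotype difference, it also measures how unlike that difference was in the 2 sets. Set1 and set2 were not a term of these fits, so in the Set libraries the spread also holds any shift between them. OsERF48 itself had 464 and 470 FPKM in Root ROX OsERF48 and 816 and 612 in Set ROX OsERF48, against 86.6 and 86.2 in Root NT and 65.9 and 59.3 in Set NT (FPKM: fragments per kilobase of transcript, scaled to the mapped fragments of the library). Steps in the low FPKM values put the depth of Root libraries at roughly 37000000 to 43000000 fragments and that of Set libraries at 45600000 to 48600000. The correlation of log2(FPKM + 1) over 26136 genes was 0.988 to 0.997 within a pair of like libraries, 0.962 to 0.981 between genotypes of a set and 0.828 to 0.888 between sets. RCc3, a root gene, was at 152 to 321 FPKM in the Root and 1236 to 1608 FPKM in the Set libraries. The summed level of 61 shoot markers was 119 and 121 FPKM in Root ROX OsERF48, 51.5 and 50.2 in Set ROX OsERF48, 181 and 181 in Root NT and 69.4 and 62.1 in Set NT, and 10 to 20 of the markers were at 0 in a library.

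By description, 27 of the 126 genes were calmodulin or calmodulin-like (3 of them cyclic nucleotide-gated channels and 1 a calcium ATPase whose description mentions calmodulin), 14 calcineurin B-like, 2 of the centrin or CCD1 kind, 2 peroxygenases or caleosins (lipid body proteins with an EF-hand), and 81 had another EF-hand description, which in 5 of them is an IQ motif, a site that EF-hand proteins bind. Their levels were uneven. A mean of 0.5 FPKM or more over the 8 libraries was reached by 85 genes, 22 were below it and 19 were listed at 0 in every library. Of 10 genes described with an EF-hand-like domain, 9 were at 0 in every library and none reached the minimum. Among the 85 genes the mean NT level ran from 0.451 to 431 FPKM with a median of 16.1. Os11g0105000 and Os12g0104900 carry the same value in all 8 libraries, so their levels are uncertain.

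The transcripts of this family came in large part from a few calmodulin genes. The 5 genes with the highest mean FPKM were all described as calmodulins, and they held 29.4% and 28.4% of the summed FPKM of the 126 genes in Root ROX OsERF48, 45.9% and 45.3% in Set ROX OsERF48, 35.5% and 35.3% in Root NT, and 44.9% and 45.9% in Set NT. Os05g0491100 was at 298 and 298 FPKM in Root ROX OsERF48 against 314 and 304 in Root NT, and at 537 and 542 for Set ROX OsERF48 against 551 and 555 for Set NT. It was higher in the Set than in the Root libraries of both genotypes. In such libraries of whole roots, a change in the RNA per cell and one in the number of cells of a type cannot be told apart. Os01g0279300 lay between 290 and 295 FPKM in all 4 Root libraries and between 333 and 341 in the Set libraries. Os01g0267900 had 210 and 206 FPKM in Root ROX OsERF48 against 265 and 261 in Root NT, and 257 and 248 for Set ROX OsERF48 against 256 and 251 for Set NT. Its ROX OsERF48 libraries were lower in the Root set, where the log2 difference was -0.34 ± 0.033 (SE), and overlapped with NT in the Set libraries.

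The other 2 of these calmodulins were higher in ROX OsERF48 in the Root libraries. Os03g0319300 was at 301 and 314 FPKM in Root ROX OsERF48 against 139 and 135 in Root NT, and at 568 and 590 for Set ROX OsERF48 against 405 and 498 for Set NT. It was above NT within both sets, and with the set as a covariate its log2 difference was 0.77 ± 0.16 (SE), adjusted p = 0.0374, which is under the 2-fold limit. Os07g0687200 was at 468 and 466 FPKM in Root ROX OsERF48 against 320 and 317 in Root NT. In the Set libraries the order was the other way, with 314 and 358 FPKM in ROX OsERF48 against 369 and 405 in NT.

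**Figure D1:**
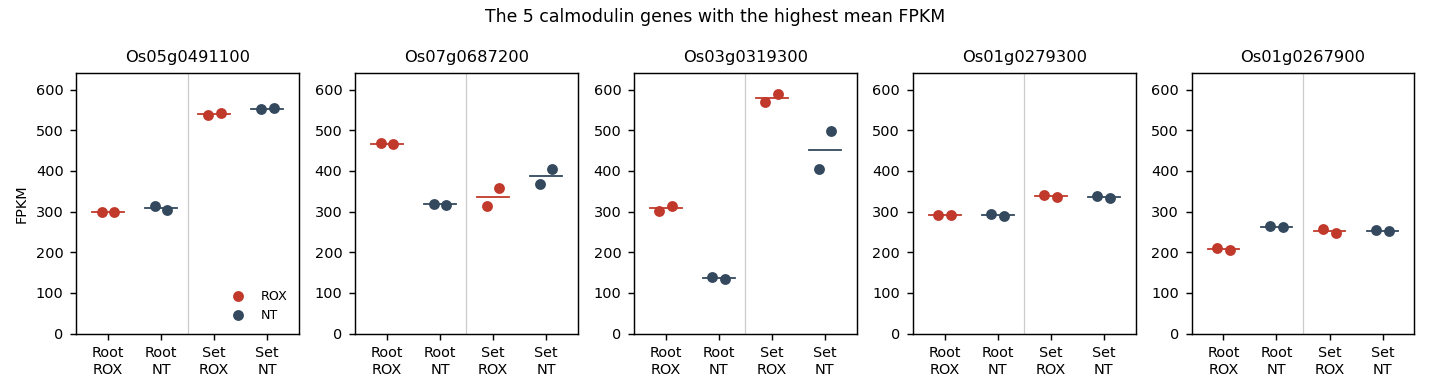
FPKM of the 5 calmodulin genes with the highest mean level, with a point for each library, a line at the mean of each pair and ROX OsERF48 (red) left of NT (dark) in both sets. Os03g0319300 is above NT in both sets, whereas Os05g0491100 and Os01g0279300 differ more between the sets than between the genotypes. Os05g0491100 is slightly below NT in both sets.

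To ask which of these genes differ between ROX OsERF48 and NT roots over both sets, log2(FPKM + 1) was fitted with the genotype and the set as terms. A gene was called when it differed by 2-fold or more with an unadjusted p under 0.05, the limits of the study. Of the 85 genes tested, 7 were called higher in ROX OsERF48, or 8.24%, where the background over all 26136 genes was 1.31%. None was called lower, with 0.314% of all genes called in that direction and 9 of the 85 were lower at an unadjusted p under 0.05, beside 17.9% of all genes. The median log2 difference of the 85 genes was 0.041, beside -0.048 for all genes, and 46 of the 85 were above 0, beside 10361 of all 26136. The 7 genes were OsCML16, OsCCD1, OsCML14, Os09g0482800, Os01g0212400, Os01g0949500 and Os01g0783700. Their adjusted p ran from 0.0476 to 0.155, so that 1 of the 7, OsCML16, passed an adjusted limit of 0.05. All 7 were also called within the Root libraries, and none within the Set libraries. The difference with the covariate is the mean of the differences within the 2 sets. A gene under 2-fold in the Set libraries must then exceed it in the Root libraries to be called, so the Root calls are built in.

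OsCML16, OsCCD1 and OsCML14 are among the candidate genes that the study picked from these samples, and it followed OsCML16 and OsCCD1 further, so the direction of these genes here is not independent evidence. The primers with which the study measured these transcripts by qRT-PCR show which assays stand for these genes, and are given 5′ to 3′ with all bases in lower case.
OsCML16 forward: ctgacaaggccaagacggag
OsCML16 reverse: cggcgctgctaattacacat
OsCCD1 forward: gtcctcatggtcaggctcag
OsCCD1 reverse: ggaatccgcgaaccaatgag

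OsCML16 (Os01g0135700, an EF-hand domain protein) lies on chromosome 1 at 1931016 to 1931904 of the IRGSP-1.0 assembly, and its 1 annotated transcript of 889 bases is as long as the locus. It was at 82.2 and 92.3 FPKM in Root ROX OsERF48 against 3.01 and 3.25 in Root NT, and at 19.7 and 22.1 for Set ROX OsERF48 against 8.74 and 11.5 for Set NT. Every ROX OsERF48 library exceeded every NT library. The means had a ratio of 27.8 in Root and 2.07 in Set. With the set as a covariate the log2 difference was 2.70 ± 0.63 (SE), with an adjusted p of 0.0476 that ran from 0.0426 to 0.851 over the alternative settings. Within the Root libraries alone the log2 difference was 4.41 ± 0.069 (SE). The SE with the covariate is wider because it takes in the gap between the 2 sets. Within the Set libraries alone the difference was 0.99 ± 0.15 (SE), just short of 2-fold, with an adjusted p of 0.0626.

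OsCCD1 (Os06g0683400) is described as similar to CCD1, a small EF-hand protein known from wheat, and lies on chromosome 6 at 28483812 to 28484488, with 1 unspliced transcript of 677 bases. It was at 258 and 272 FPKM in Root ROX OsERF48 against 21.3 and 19.5 in Root NT, and at 72.7 and 92.2 for Set ROX OsERF48 against 68.2 and 85.6 for Set NT. The genotypes were far apart in the Root libraries and overlapped in the Set libraries, where ROX OsERF48 was above NT within set1 (72.7 against 68.2) and within set2 (92.2 against 85.6). The ratio of the means was 13.0 in the first and 1.07 in the second. With the set as a covariate the log2 difference was 1.87 ± 0.65 (SE), adjusted p = 0.121. It was no longer called without any 1 of the 4 Root libraries: it came to 1.49 to 1.54 without Root ROX library 1, Root ROX library 2, Root NT library 1 or Root NT library 2. The other gene described as similar to CCD1, Os01g0783700, was at 28.8 and 30.0 FPKM in Root ROX OsERF48 against 9.57 and 7.54 in Root NT. Its Set level was 11.8 and 15.4 FPKM in ROX OsERF48 against 11.3 and 8.58 in NT. No NT library reached its ROX OsERF48 level, the nearest by 11.8 against 11.3 FPKM, and the log2 difference with the set as a covariate was 1.05 ± 0.26 (SE).

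OsCML14 (Os05g0577500), a further CML protein that the study names, was at 36.7 and 41.6 FPKM in Root ROX OsERF48 against 8.12 and 8.54 in Root NT, and at 13.4 and 14.1 for Set ROX OsERF48 against 9.87 and 11.4 for Set NT. Its ROX OsERF48 libraries were above NT in both sets, by 2.10 ± 0.070 (SE) on the log2 scale in the Root and by 0.35 ± 0.10 (SE) in the Set libraries. Os01g0212400, an EF-hand protein with a transcript of 2022 bases, was at 178 and 174 FPKM in Root ROX OsERF48 against 36.9 and 35.8 in Root NT, whereas the Set libraries overlapped at 109 and 101 FPKM in ROX OsERF48 and 90.4 and 110 in NT. Os01g0949500, described as similar to calmodulin, was at 71.5 and 72.1 FPKM in Root ROX OsERF48 against 16.7 and 16.3 in Root NT. Its Set level was 44.0 and 50.9 FPKM in ROX OsERF48 and 41.3 and 51.2 in NT, which overlap. Os09g0482800 was at 6.87 and 6.79 FPKM in Root ROX OsERF48 against 0.353 and 0.487 in Root NT, and in the Set libraries at 1.85 and 0.441 in ROX OsERF48 against 1.38 and 0.666 in NT. Its 2 Set ROX OsERF48 libraries lay on either side of both NT libraries.

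The count of 7 moved with the weight of the Root set in this fit, which is lower when a Root library is left out. It is higher when a Set library is left out, so these counts do not tell how far any single library mattered. Without Root ROX library 1, Root ROX library 2, Root NT library 1 or Root NT library 2, 3 genes were called each time, with OsCML16 and OsCML14 kept, Os11g0586200 gained and the other 5 lost. Without a Set library the count was 8 or 9. When the 2 libraries of a genotype and set were averaged first, so that 4 values entered the fit, 2 of the 7 were called, OsCML16 and Os01g0783700.

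**Figure D2:**
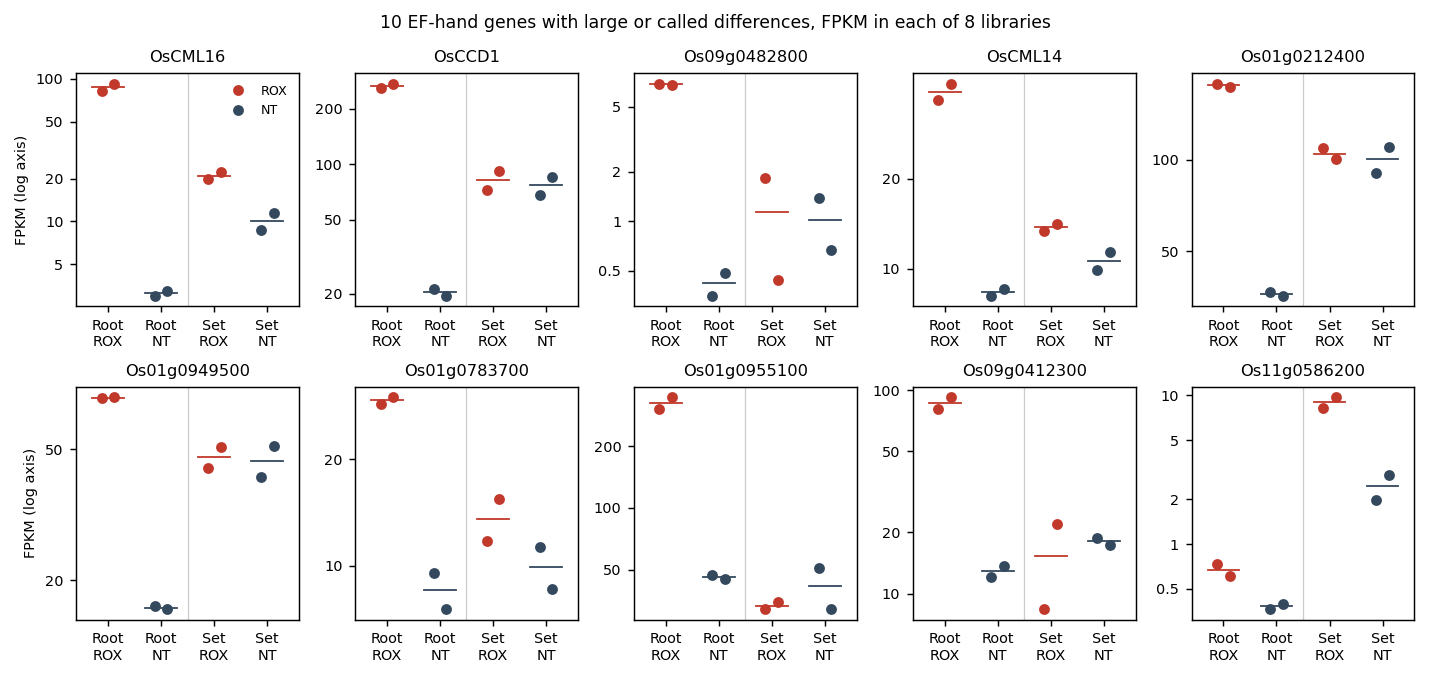
FPKM on a log axis of the 7 genes called with the set as a covariate and of Os01g0955100, Os09g0412300 and Os11g0586200, with a point for each library, a line at the mean of each pair, and ROX OsERF48 (red) left of NT (dark) in both sets. The Root ROX OsERF48 libraries are far above Root NT in 9 of the 10 panels, and on the Set side ROX OsERF48 is furthest from NT in Os11g0586200, followed by OsCML16.

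Within the Root libraries alone, 84 of the genes were tested and 14 were called higher in ROX OsERF48, or 16.7%, with 4.23% of all 25090 genes tested called in that direction. None was called lower, against 0.976% of all genes, and the lowest log2 difference was -0.75 in Os01g0765600. The 14 genes were above NT by 1.17 to 4.41 on the log2 scale, with a median of 2.08. They comprised 4 of the 16 calmodulin or calmodulin-like genes tested, both CCD1-like genes and 8 of the 54 with another EF-hand description. Of the 11 calcineurin B-like genes 0 were called, which for 11 genes is near the 4.23% of all genes. Each of the 14 remained called without any 1 of the 4 Root libraries. The Root pairs were close together, with a median difference of 0.072 between the ROX OsERF48 and 0.051 between the NT libraries on the log2 scale over 85 genes, against 0.15 and 0.12 in the Set pairs. In this set RCc3 was at 152 and 161 FPKM in ROX OsERF48 against 321 and 307 in NT, and 5 of 34 shoot markers tested were called lower. The part of either in these differences was not tested.

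Besides OsCML16, OsCCD1 and Os09g0482800, the largest Root differences were those of a pair of calmodulin-like genes. Os01g0955100, which the study lists in a network around OsERF48, was at 303 and 347 FPKM in Root ROX OsERF48 against 47.2 and 45.2 in Root NT. In the Set libraries it was at 32.1 and 34.6 FPKM in ROX OsERF48 against 50.9 and 32.3 in NT, where the genotypes overlapped. The log2 difference was 2.79 ± 0.064 (SE) in the Root and -0.28 ± 0.22 (SE) in the Set libraries. Os09g0412300, which overlaps another annotated gene, was at 81.0 and 92.3 FPKM in Root ROX OsERF48 against 12 and 13.8 in Root NT, and at 8.42 and 22.1 for Set ROX OsERF48 against 18.9 and 17.4 for Set NT. Its log2 difference was 2.66 ± 0.081 (SE) in the Root libraries, and its Set ROX OsERF48 libraries again lay on either side of NT.

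The remaining genes called in the Root libraries are named here after their values were seen. Os07g0631700, an EF-hand protein gene, was at 109 and 114 FPKM in Root ROX OsERF48 against 30.6 and 31.7 in Root NT, and at 83.3 and 79.9 for Set ROX OsERF48 against 89.4 and 95.6 for Set NT. Os01g0949300, which lies 6828 bases from Os01g0949500 on chromosome 1, was at 216 and 233 FPKM in Root ROX OsERF48 against 90.1 and 84.9 in Root NT. Os05g0312600 was at 101 and 113 FPKM in Root ROX OsERF48 against 45.0 and 44.2 in Root NT, while in the Set libraries it was lower, at 19.6 and 22.7 FPKM in ROX OsERF48 against 31.7 and 35.9 in NT. Os06g0172200 was above Root NT by 1.34 on the log2 scale, and Os03g0319300, described above, by 1.17.

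The 14 genes had features in the annotation that played no part in the test. All 14 have 1 annotated transcript, and in 12 of them (85.7%) it is as long as the locus, that is, without an intron in this annotation. This held for 17 of the other 70 genes tested in the Root libraries (24.3%). On chromosome 1 lie 6 of the 14 (42.9%) and 9 of the other 70 (12.9%). Their Root NT levels, which do enter the test, ran from 0.420 to 137 FPKM with a median of 25.0. In the other 70 they ran from 0.162 to 318 FPKM with a median of 14.7. These shares are descriptions of genes chosen by their Root difference and were not tested. Neither feature was among the planned comparisons, and their shares over all genes called in the Root libraries were not computed. The other 70 hold all 11 calcineurin B-like genes tested and 0 of the CCD1-like genes, so the classes differ as well. The 3 that overlap another annotated gene are Os01g0949300, Os06g0172200 and Os09g0412300. Reads in the shared stretch may come from either gene.

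Summed over all 126 genes, the level was 5326 and 5543 FPKM in Root ROX OsERF48 against 3749 and 3698 in Root NT, and 4396 and 4583 for Set ROX OsERF48 against 4275 and 4449 for Set NT. The 14 genes called in the Root libraries made up 34.7% and 35.7% of the sum in Root ROX OsERF48 against 13.0% and 12.8% in Root NT. They were chosen for being higher in these Root ROX OsERF48 libraries, so this gap is built in. Their share in the Set libraries was 25.2% and 26.4% in ROX OsERF48 against 22.4% and 25.1% in NT. The other 112 genes summed to 3480 and 3563 FPKM in Root ROX OsERF48 against 3260 and 3223 in Root NT. In the Set libraries they summed to 3286 and 3375 FPKM in ROX OsERF48 against 3317 and 3333 in NT.

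**Figure D3:**
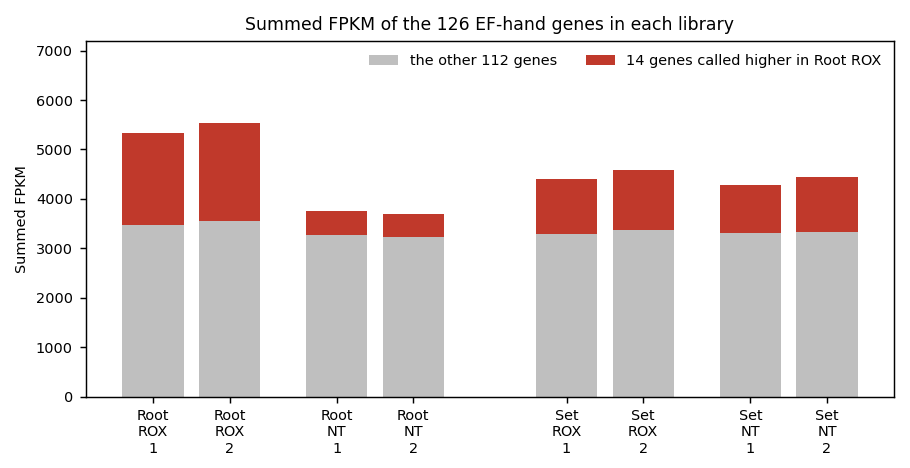
Summed FPKM of the 126 genes in each library, stacked as the 14 genes called higher within the Root libraries (red) and the other 112 (grey), with ROX OsERF48 left of NT in each set. The red part is 1847 and 1980 FPKM in Root ROX OsERF48 against 489 and 475 in Root NT, a difference by which its genes were chosen. The grey part is 3480 and 3563 in Root ROX OsERF48 against 3260 and 3223 in Root NT.

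Within the Set libraries, 90 genes were tested and 1 was called higher in ROX OsERF48, or 1.11%, beside 0.922% of all 26131 genes. None was called lower, where 0.597% of all genes were. At an unadjusted p under 0.05, 10 of the 90 were higher, beside 7.18% of all genes, and 9 lower, beside 8.66%. The called gene was Os11g0586200, described as similar to calmodulin. It was at 8.27 and 9.73 FPKM for Set ROX OsERF48 against 1.99 and 2.93 for Set NT, and at 0.737 and 0.612 in Root ROX OsERF48 against 0.366 and 0.397 in Root NT. The ROX OsERF48 libraries were above NT in both sets, by 1.54 ± 0.17 (SE) on the log2 scale in the Set libraries (adjusted p = 0.0319) and by 0.28 ± 0.093 (SE) in the Root libraries, where the low level makes this scale understate the ratio. The count in the Set libraries depended on single libraries: it was 2 without Set ROX library 1, 5 without Set ROX library 2 and 4 without Set NT library 2, with OsCML16 among the genes gained without the first and the third of these.

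The difference between the sets was tested directly, as the Root difference minus the Set difference in a fit of the 4 group means. At an adjusted p under 0.05 it differed for 27 of 85 genes (31.8%), beside 21.5% of all 26136 genes. It was positive for 21 of them, beside 10.7% of all genes, and negative for 6, beside 10.8%. All 14 genes called in the Root libraries were among the 21, with a difference of 0.80 to 3.54. They were chosen by their Root difference, which enters this one, and of all 1044 genes called higher in the Root libraries and tested here, 84.6% passed in the same direction. In the Set libraries 9 of these 14 were above NT and 5 below it, by -0.65 to 0.99 on the log2 scale with a median of 0.054, and in 8 of the 14 the genotypes overlapped. Taken within set1 and within set2, ROX OsERF48 was above NT in both for 6 of the 14, below NT in both for 3 and in opposite directions for 5. The largest positive differences between the sets were those of OsCCD1 (3.54 ± 0.19 SE, adjusted p = 8.7e-05), OsCML16 (3.42 ± 0.18 SE, adjusted p = 6.5e-05) and Os01g0955100 (3.06 ± 0.26 SE, adjusted p = 0.000466).

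The largest negative ones were those of Os11g0586200 at -1.26 ± 0.20 (SE), of Os09g0458800 at -1.0 and of Os03g0263900 at -0.65. Os09g0458800, an EF-hand protein gene, was at 5.71 and 5.63 FPKM in Root ROX OsERF48 against 7.66 and 7.36 in Root NT, and at 5.73 and 4.13 for Set ROX OsERF48 against 3.53 and 2.07 for Set NT. Os03g0263900 was at 9.88 and 9.91 FPKM in Root ROX OsERF48 against 13.7 and 14 in Root NT, and at 17.4 and 17.6 for Set ROX OsERF48 against 14.7 and 15.5 for Set NT. Both were below NT in the Root and above NT in the Set libraries.

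**Figure D4:**
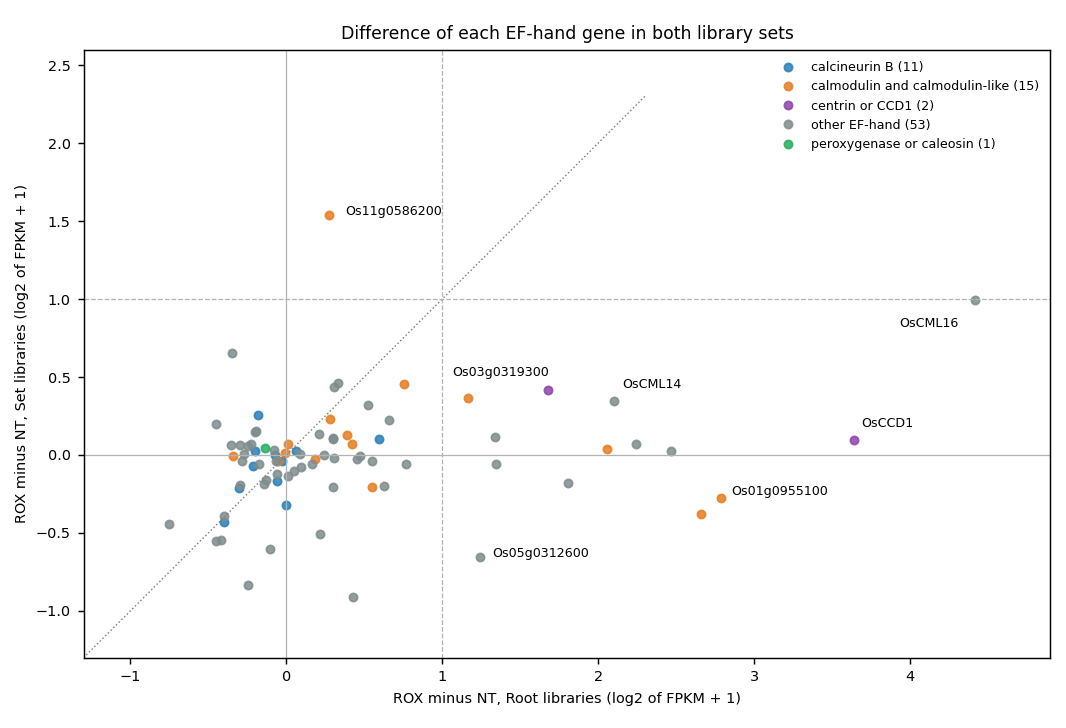
Difference between ROX OsERF48 and NT on the log2(FPKM + 1) scale in the Root libraries (x axis) and in the Set libraries (y axis) for the 82 genes tested in both, coloured by class, with dashed lines at 2-fold and a dotted line where both sets would give the same difference. The 14 genes beyond 2-fold in the Root libraries lie between -0.65 and 0.99 in the Set libraries, and Os11g0586200 is the 1 gene beyond 2-fold there.

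The NT libraries also differed between the sets. Set NT was 2-fold or more above Root NT in 12 of 85 genes, beside 13.7% of all genes, and below it in 4, beside 6.83%. Of the 14 genes called in the Root libraries 6 were among the 12 and none among the 4. The Root NT libraries enter both differences, and low values in them raise both, so this count is in part built in. The share over all genes called higher in the Root libraries was not computed. The 6 were OsCCD1 (1.86 on the log2 scale), Os03g0319300 (1.71), Os07g0631700 (1.54), Os01g0212400 (1.44), Os01g0949500 (1.43) and OsCML16 (1.41). In Os01g0955100, by contrast, Set NT and Root NT overlapped, with a difference of -0.18. Os09g0115900, named after its values were seen, was furthest in the other direction, at 6.32 and 5.19 FPKM in Set NT against 30.1 and 36.5 in Root NT.

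None of the tested calcineurin B-like genes, the partners of the CIPK kinases, differed by 2-fold between the genotypes. Of the 14 genes of this class, 11 were tested and 2 were at 0 in every library. A count of 0 called among 11 is near the background. With the set as a covariate 1.31% of all genes were called higher and 0.314% lower. Within the Root libraries these shares were 4.23% and 0.976%. The 11 tested genes had 2.83 to 48.5 FPKM. Their log2 difference with the set as a covariate was from -0.41 to 0.35, with 3 of 11 above 0 and a median of -0.087. Over all 26136 genes 10361 were above 0, with a median of -0.048. The highest in the Root libraries was Os10g0564800, at 45.0 and 42.7 FPKM in ROX OsERF48 against 45.6 and 43.9 in NT. Os03g0448500, described as similar to CBL7, was lower in ROX OsERF48 at an adjusted p of 0.0426, by -0.26 ± 0.058 (SE). Within the Root libraries 1 of the 11 was higher and 4 were lower at an adjusted p under 0.05, beside 20.8% and 32.0% of all genes. The higher one, Os02g0291000, was at 16.2 and 18.1 FPKM in Root ROX OsERF48 against 11.1 and 10.8 in Root NT, a log2 difference of 0.60 ± 0.067 (SE), adjusted p = 0.000351. Its Set libraries were spread in both genotypes, at 17.1 (set1) and 36.3 (set2) FPKM in ROX OsERF48 and 17.4 (set1) and 30.9 (set2) in NT.

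Of the calmodulin or calmodulin-like genes, 13 of 15 tested were above 0 with the set as a covariate, with a median log2 difference of 0.26. Over all 26136 genes 10361 were above 0, with a median of -0.048. In the Root libraries the median of this class was 0.41 over 16 genes, beside -0.076 for all genes. In the Set libraries it was 0.054 over 16 genes, beside -0.023. Smaller differences of one direction in both sets were also found when the adjusted p alone was used as the limit. Under it 6 of 85 genes were higher (7.06%, beside 2.74% of all genes) and 5 lower (5.88%, beside 4.34%), and all 11 had the same direction in both sets. Unlike differences in the 2 sets make it hard to pass this fit, so that agreement is in part built in. Its share over all passing genes was not computed. The 6 higher genes included 2 further ones described as calmodulins, here named after their values were seen. Os12g0603800 was at 8.54 and 8.46 FPKM in Root ROX OsERF48 against 4.78 and 4.49 in Root NT, and at 16.3 and 20.2 for Set ROX OsERF48 against 12.8 and 13.2 for Set NT. Os08g0117400 had 103 and 110 FPKM in Root ROX OsERF48 against 90.2 and 84.2 in Root NT, and 149 and 137 for Set ROX OsERF48 against 120 and 123 for Set NT.

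Among the 5 lower genes, also named after their values were seen, Os01g0765600 fell most. It was at 49.4 and 56.1 FPKM in Root ROX OsERF48 against 88.2 and 90.8 in Root NT, and at 91.8 and 116 for Set ROX OsERF48 against 133 and 149 for Set NT, a log2 difference of -0.60 ± 0.10 (SE), adjusted p = 0.0194. Os04g0601400 was at 12.1 and 13.8 FPKM in Root ROX OsERF48 against 17.9 and 17.1 in Root NT, and at 11.1 and 12.1 for Set ROX OsERF48 against 15.6 and 19.2 for Set NT. Each ROX OsERF48 library of Os04g0601400 was below each NT library. Such a separation of all 8 libraries was found for 4 of 85 genes with ROX OsERF48 above, beside 2.07% of all genes, and for 4 with ROX OsERF48 below, beside 3.30%.

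Other genes of calcium signalling were taken as lists by description. With the set as a covariate, 1 of 42 calcium-regulated kinases tested, 1 of 37 calcium transport genes and 1 of 28 C2 domain genes were called higher, and 0 of 8 annexins and 0 of 62 calmodulin-binding proteins. None was called lower. Over all genes 1.31% were called higher and 0.314% lower, so for lists of this size these counts are near the background. The median log2 differences were 0.071 for the kinases, -0.026 for transport, 0.11 for the C2 domain genes, -0.014 for the annexins and -0.075 for the calmodulin-binding proteins. Within the Root libraries 2 of 41 kinases, 4 of 36 transport genes, 5 of 27 C2 domain genes, 0 of 8 annexins and 3 of 59 calmodulin-binding proteins were called higher, beside the 4.23% of all genes. In this set 1 kinase and 1 calmodulin-binding protein were called lower, and none in the other 3 lists, beside 0.976% of all genes. A further 4 calcium genes outside the 126 that the study listed from these samples were all called higher with the set as a covariate and within the Root libraries, and none within the Set libraries, a list that is not independent evidence of its direction.

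Of the 85 genes tested, 20 have more than 1 annotated transcript, and in 11 of these the main transcript held at least 80% of the gene's FPKM in every library. Transcript Os05t0491100-02 held 94.7% to 97.2% of Os05g0491100, and Os07t0687200-02 held 95.6% to 97.5% of Os07g0687200. In Os08g0117400 the share of the first transcript was 70.7% and 72.2% in Root ROX OsERF48 against 64.0% and 71.2% in Root NT, and 48.0% and 69.6% for Set ROX OsERF48 against 57.8% and 53.6% for Set NT. The genotypes overlapped in the Set libraries, and these shares were not tested.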

How the data were processed

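RNA-seq libraries of strand-specific TruSeq type were sequenced on an Illumina instrument. FPKM tables for genes and for transcripts were deposited by the authors, with fragments mapped to the IRGSP-1.0 rice genome. The aligner and the quantifier are not given in the sources used here. The tables also hold 4 value columns that match no sample and were left out. Their gene FPKM is the sum over transcripts.

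Members were found by description, and the members, the lists of calcium genes and the tests were chosen with earlier results of these data known. Shoot markers and the calcium lists were taken from descriptions too. FPKM are not counts, so log2(FPKM + 1) was tested with limma 3.58.1 in R 4.3.3, on genes with a mean of at least 0.5 FPKM in the libraries of the fit, with Benjamini-Hochberg adjustment over all genes tested. A fold change on this scale understates that of genes with low values. The fit took genotype and set as terms; further fits took 1 set alone, or the 4 group means for the difference between the sets. Called means at least 2-fold and an unadjusted p under 0.05.

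Named genes are those with an identifier in the paper, those called with the set as a covariate, the 5 highest by mean FPKM, up to 5 largest called differences within each set, and the 3 largest differences between the sets in each direction. Depth was estimated by finding the fragment total at which low FPKM values of genes with 1 transcript became whole. At that total, 94.7% to 96.0% were within 0.1 of a whole fragment. The fits were tested on simulated data. Alternatives were the pseudocount (0.1), the filter (none, or 5 FPKM), quantile and median-ratio scaling, no variance trend, no set term, averaged pairs, sums over transcripts, leaving out each library, and a block by library number. No reference sequence matched to these gene identifiers was used, so sequences are limited to the primers of the study.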

Additional observations from a re-analysis of the deposited data

Results flagged for a closer look

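The difference between ROX OsERF48 and NT was not the same in the Root and the Set libraries for 15 of the 17 named genes, by the test of that difference (limma, adjusted p under 0.05), beside 21.5% of all genes. Of the 17, 6 were named for the size of this difference and others for a large difference in 1 set, so this count is in part set by how they were chosen. The Root difference minus the Set difference, on the log2 scale, was 3.54 for OsCCD1, 3.42 for OsCML16, 3.06 for Os01g0955100, 3.03 for Os09g0412300, 2.44 for Os09g0482800 and 2.18 for Os01g0212400. It was 2.02 for Os01g0949500, 1.76 for OsCML14, 1.26 for Os01g0783700, 0.80 for Os03g0319300 and 0.76 for Os07g0687200. It was negative, at -1.26, for Os11g0586200, at -1.0 for Os09g0458800, at -0.65 for Os03g0263900 and at -0.34 for Os01g0267900. The line and the set cannot be told apart, and RCc3 and the shoot markers also differed between the sets.

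In Os09g0458800 the lowest of the 4 ROX OsERF48 libraries, at 4.13 FPKM in the Set libraries, stood apart from the other 3. Chance alone sets such a library apart in about 1 of 20 groups of like libraries. These 4 were drawn from the Root and the Set libraries, which are unlike, so that rate does not hold here. Such a library also turns up by chance when many groups are looked at, so no conclusion is drawn from it.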

How the results depend on the processing

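OsCML16 kept its direction and its call under all alternatives run, by 2.68 to 2.90 on the log2 scale, and by 2.33 to 3.12 when 1 library was left out. OsCCD1 kept its direction, by 1.49 to 2.29 when 1 library was left out, and lost its call without any Root library, with averaged pairs (1.87) and with the replicate block (1.87). The count of 7 was 3 to 9 when 1 library was left out, 2 with averaged pairs, and 6 or 7 with the scaling, filter, pseudocount and trend alternatives and with no set term. The library numbers were not taken as a pairing. Same-numbered libraries deviated together with a correlation of 0.024 among Root libraries and 0.26 among Set libraries. For the Set libraries the names give 1 library of each genotype in set1 and in set2. A shift between set1 and set2 was thus left in the spread of the fits within the Set libraries. Those libraries were not fitted alone with set1 and set2 as a term. The replicate block, chosen after seeing the data, left 3 of the 7 called. The count of 14 within the Root libraries was 14 without any 1 library and 13 to 17 otherwise. The count of 1 within the Set libraries was 1 to 5 when 1 library was left out, 4 with a pseudocount of 0.1 (1 of the 4, Os03g0812400, lower) and 2 with quantile scaling; OsCML16 was gained under both. The count of 27 genes that differed between the sets was 19 to 31 when 1 library was left out and 22 to 29 otherwise. With the set as a covariate, leaving out 1 library lowers the weight of its set in the fit. The causes of these changes were otherwise not tested. Sums over transcripts gave the same values. Depth limits genes of low FPKM, where few fragments stand behind a value.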

Other observations

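Several members lie beside one another on a chromosome, and some of these neighbours were at different levels. Os05g0491100, the highest calmodulin gene, lies 1603 bases from Os05g0491000, which was at 2.73 and 3.16 FPKM in Root ROX OsERF48 against 3.68 and 3.66 in Root NT. On chromosome 9, Os09g0458900 was at 147 and 161 FPKM in Root ROX OsERF48 against 129 and 120 in Root NT, and at 250 and 311 for Set ROX OsERF48 against 190 and 223 for Set NT, beside its low neighbours Os09g0458700 and Os09g0458800. Os09g0483500, in the group of 5 neighbours that starts with Os09g0482800, was at 9.27 and 1.2 FPKM for Set ROX OsERF48 against 3.73 and 2.50 for Set NT, so that its Set ROX OsERF48 libraries lay on either side of NT.

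The genes Os11g0140600 and Os12g0137100, with the same description on chromosomes 11 and 12, had like levels. Os11g0140600 was at 110 and 112 FPKM in Root ROX OsERF48 against 76.5 and 74.3 in Root NT, and Os12g0137100 at 129 and 126 against 93.6 and 93.0. In the Set libraries Os11g0140600 was at 57.3 and 52.3 FPKM in ROX OsERF48 and 58.8 and 53.5 in NT, and Os12g0137100 at 76.0 and 69.5 in ROX OsERF48 and 76.0 and 72.3 in NT. All genes here were named after their values were seen.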
